A study of Danio rerio with 8 samples.

Results

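The DNA replication genes are a list of 45 gene symbols covering the licensing factors, the replicative helicase, the polymerases and the other proteins of the replication fork. They were followed in the polyadenylated RNA of zebrafish (Danio rerio), taken from whole embryos. Symbols were matched to the Ensembl identifiers of the deposited tables, ignoring case, and an identifier was used if it reached 1 RPKM (reads scaled to the length of the gene and to the size of the library) in at least 1 table. Of the 45 symbols, 40 had a row in the tables. They stood for 41 identifiers, since mcm6 names 2 of them, and 40 identifiers reached 1 RPKM, out of 16217 identifiers compared in all. The only identifier named pold2, ENSDARG00000095046, is listed at 0 in all 4 tables and was not compared, and mcm2, mcm7, orc2, orc4 and pole2 were not analysed here. The lowest peak value among the 40 was 4.39 RPKM, of orc5. Several of these genes appear in capitals in the symbol table, as GMNN does here, and are otherwise written in lower case.

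The embryos had been injected either with a control morpholino, going by the sample titles, or with a morpholino against ddx3xb, and were collected at 2 or 6 hours post fertilization (hpf). A morpholino is a short antisense molecule that stops an RNA from being translated or spliced, and ddx3xb codes for an RNA helicase of the DEAD-box family. The 8 libraries form 4 groups of 2, namely control and knockdown at 2 hpf and control and knockdown at 6 hpf. The genotype label of both control groups reads wild type, and that of 1 knockdown library at 6 hpf reads ddx4xb where its title reads ddx3xb. Titles were followed. How many embryos went into a library is not given in the sources used here, and embryos of the series at 4 hpf were not analysed here. Each table holds 1 value per gene and group, so no difference below has an error, a test or a replicate check. A gene is said to have risen or fallen where the ratio of (RPKM + 1) was at least 2-fold, which understates changes at low values. Where values come in pairs, control is given first.

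Replication starts at origins bound by the origin recognition complex (ORC), where Cdc6 and Cdt1 load the ring-shaped MCM helicase, a step called licensing. Geminin, the product of GMNN, binds Cdt1 and keeps licensing from happening again within a cycle, while the kinase Cdc7 with its partner Dbf4 fires the loaded helicase, which becomes active when Cdc45 and the GINS complex join it. The cleaving fish embryo runs through rapid cycles of S phase and mitosis on RNA and protein laid down in the egg, and its cycles lengthen around the time its own genome is switched on.

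The tables held the transcripts of their ages. All 6 measured genes of a list switched on by the gastrula reached at least 7.41 RPKM in both tables at 6 hpf, and at 2 hpf 1 of them reached 1 RPKM, in knockdown. The 9 measured egg transcripts summed to 669.6 RPKM in control and 756.3 RPKM in knockdown at 2 hpf, and to 121.7 and 228.2 RPKM at 6 hpf. At 2 hpf only 2 of the 9 were higher in knockdown, among them org, at 180.6 RPKM in control against 369.9 RPKM. Their median at that age was 36.7 RPKM in control and 22.7 RPKM in knockdown. Markers of differentiated cells (such as blood, muscle and neurons), of which 7 had a row, summed to between 0.922 and 2.47 RPKM per table with 2 or 3 of them at 0. The targeted transcript, ddx3xb, stood at 273.9 RPKM in control against 250.8 RPKM in knockdown at 2 hpf and at 141.0 and 321.8 RPKM at 6 hpf, and the amount of RNA need not follow a morpholino. The 5 features above 5000 RPKM made up 45.1% of all RPKM in knockdown at 2 hpf and between 0.776% and 2.95% in the other tables. RPKM is relative to the library, so the median gene did not stay at 0: the median log2 ratio of knockdown to control over the 16217 genes was -0.12 at 2 hpf and 0.20 at 6 hpf. Rescaling by the median ratio of well-measured genes shifted these medians by 0.12 and -0.24.

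Replication transcripts were plentiful at both ages. The 40 members had a median of 30.7 RPKM in control and 26.3 RPKM in knockdown at 2 hpf, and of 26.4 and 34.8 RPKM at 6 hpf. At 2 hpf 38 of the 40 were at 1 RPKM or more in each table, and at 6 hpf all 40 were. Licensing factors led the list. In control embryos at 2 hpf the highest levels were those of cdc6 (448.7 RPKM), GMNN (374.1 RPKM), cdt1 (311.9 RPKM), pcna (306.0 RPKM) and orc6 (251.0 RPKM). By 6 hpf pcna was highest in both arms, at 618.6 RPKM in control against 611.8 RPKM in knockdown, followed by cdt1 and cdc6 in control and by cdc6 and cdt1 in knockdown. Together the members took 0.676% of the RPKM sum of control and 0.353% of that of knockdown at 2 hpf, the latter 0.643% when the 5 features above 5000 RPKM were left out of the sum. At 6 hpf they took 0.536% in control and 0.702% in knockdown.

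**Figure D1:**
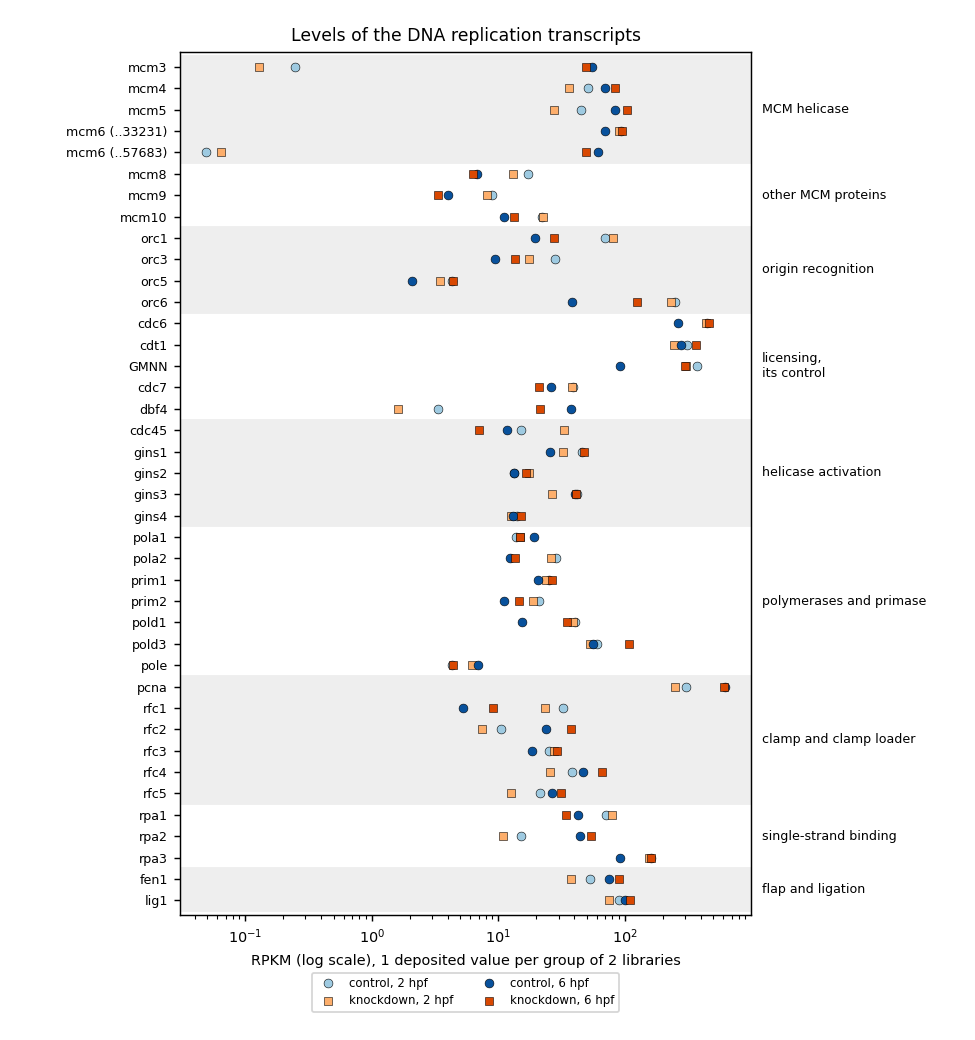
RPKM on a log scale for each of the 40 members, ordered by role, with 1 point for each of the 4 groups (circles control, squares knockdown, pale 2 hpf, dark 6 hpf). Within each group most members lie between 10 and 100 RPKM, though not always the same ones, while mcm6 (ENSDARG00000057683), at 0.0493 RPKM in control at 2 hpf, and mcm3 come up from near 0.

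In knockdown embryos at 2 hpf the replication transcripts stood close to control. Of the 40 members 1 rose, cdc45, against 0.506% of all genes compared, and none fell, against 0.943%. At a smaller size of 1.5-fold, 1 member was higher (1.75% of all genes) and 5 were lower (6.47%). These 5 were mcm5, orc3, dbf4, gins3 and rfc5, with log2 ratios between -0.73 and -0.63. The median log2 ratio of the members was -0.15, near the -0.12 of all genes, and it became 0.03 under median-ratio rescaling. With 31 members below 0 as deposited and 19 after that rescaling, the direction of the group at 2 hpf depended on the scaling. Above 0 lay 22.5% of the members as deposited and 52.5% after it, against 27.1% and 47.1% of all genes.

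At 6 hpf 3 of the 40 members rose, GMNN, orc6 and pold1, against 8.72% of all genes, and none fell, against 7.87%. At 1.5-fold 11 members were higher (26.1% of all genes) and 2 were lower (16.2%). Their median log2 ratio was 0.29, beside 0.20 for all genes, and -0.03 under median-ratio rescaling, when 19 of 40 lay above 0 in place of 29. For all genes the share above 0 was 61.0% as deposited and 47.1% after that rescaling. The median of the members and the number risen thus stood near those of all genes. Above 0 lay 72.5% of the members as deposited and 47.5% after that rescaling. With quantile normalization 70% of the members lay above 0, against 56.1% of all genes. The log2 ratios of GMNN and orc6 stayed between 1.37 and 1.70 under all 4 scalings tried, whereas pold1 went from 1.13 to 0.83. The same ratios at 6 hpf were above 0 in all 9 egg transcripts (median 0.97, 4 risen) and below 0 in 5 of the 6 gastrula genes (median -0.30, 1 risen and 1 fallen). Their part in the members' values was not tested, and in whole embryos fewer cells of a type and less RNA per cell cannot be told apart.

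**Figure D2:**
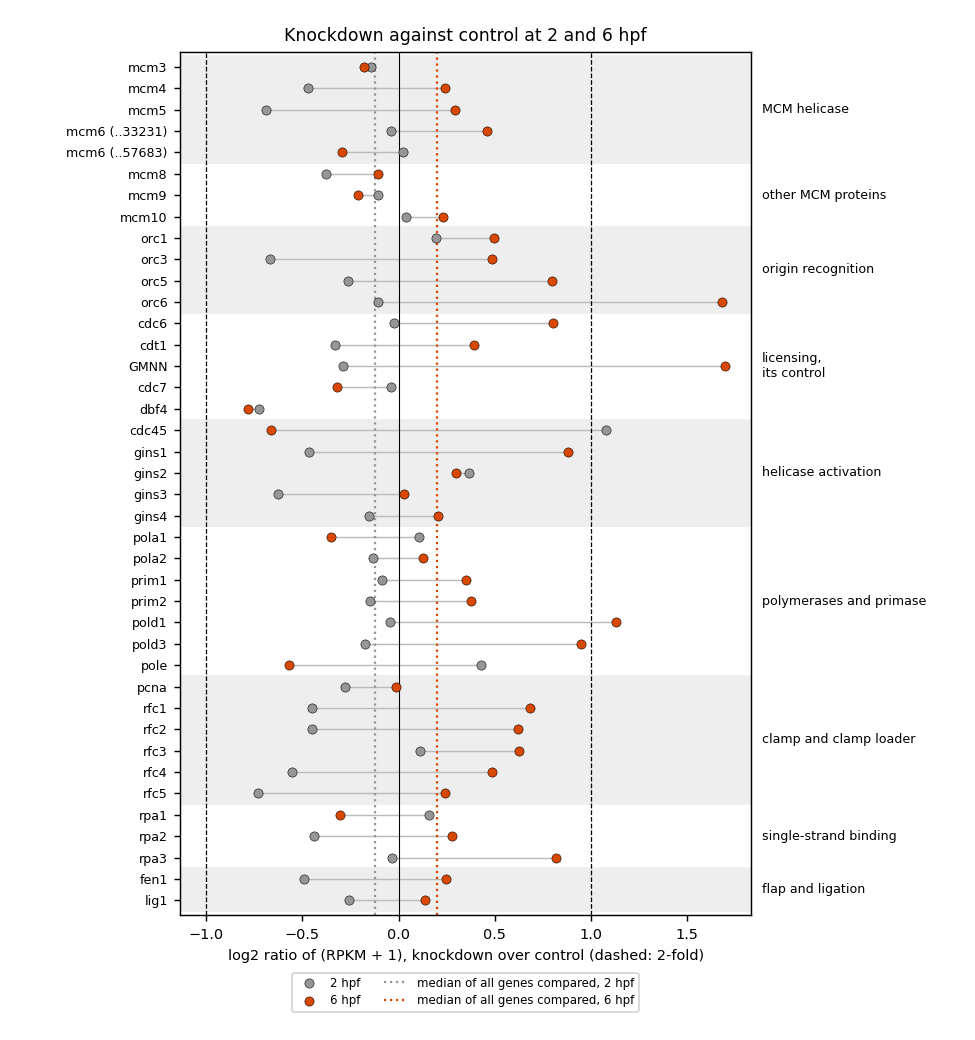
Log2 ratio of (RPKM + 1), knockdown over control, for each member by role at 2 hpf (grey) and 6 hpf (orange), joined by a line, with dotted lines at the medians of all genes and dashed lines at 2-fold. GMNN (1.70) and orc6 (1.68) lie farthest right at 6 hpf, and cdc45 crosses from 1.08 at 2 hpf to -0.67 at 6 hpf.

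Among the genes that control licensing, the inhibitor GMNN differed most. It stood at 374.1 RPKM in control against 305.8 RPKM in knockdown at 2 hpf, whereas at 6 hpf it stood at 91.4 and 298.2 RPKM, a log2 ratio of 1.70. Control embryos had thus lost most of this transcript by the gastrula, a log2 change of -2.02, while knockdown embryos were near their starting level, with a change of -0.04. The transcripts of the loaders, cdc6 and cdt1, differed less between the arms at 6 hpf. The level of cdc6 was 448.7 RPKM in control and 442.0 RPKM in knockdown at 2 hpf, and 264.9 and 463.4 RPKM at 6 hpf, a log2 ratio of 0.80 at the later age. That of cdt1 was 311.9 and 247.6 RPKM at 2 hpf, then 279.7 and 367.7 RPKM at 6 hpf, a ratio of 0.39. Both ratios at 6 hpf stayed above 0 under every scaling, at 0.49 to 0.87 for cdc6 and 0.08 to 0.48 for cdt1.

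The balance of these transcripts can be read within a table, where the scaling drops out. There were 0.834 RPKM of cdt1 per RPKM of GMNN in control at 2 hpf, with 0.810 for knockdown. At 6 hpf the ratio had gone to 3.06 in control and to 1.23 in knockdown. For cdc6 over GMNN the 4 ratios were 1.20 and 1.45 at 2 hpf and 2.90 and 1.55 at 6 hpf. In both, the control table at 6 hpf lies apart from the other 3.

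The transcripts for the subunits of the firing kinase changed in opposite directions over time, though cdc7 in control hardly changed under median-ratio rescaling. The catalytic subunit cdc7 stood at 39.2 RPKM in control against 38.0 RPKM in knockdown at 2 hpf and at 26.3 and 20.9 RPKM at 6 hpf. Across the 4 scalings the log2 change of cdc7 ran from -0.66 to -0.02 in control and from -1.03 to -0.84 in knockdown. Its activator dbf4 was scarce at first, at 3.35 and 1.63 RPKM, and rose to 37.5 and 21.4 RPKM. A relative of dbf4, dbf4b, which is no member, stood at 30.3 and 23.3 RPKM at 2 hpf. The log2 change of dbf4 was 3.15 in control and 3.09 in knockdown as deposited, and 3.63 and 3.08 under median-ratio rescaling. It thus rose in both arms from unequal starting levels, and how alike the rises were depended on the scaling. The ratio of cdc7 to dbf4 went from 11.7 to 0.702 in control and from 23.4 to 0.976 in knockdown. Knockdown embryos were lower in dbf4 at both ages, with log2 ratios of -0.73 at 2 hpf and -0.78 at 6 hpf, the latter -1.09 under median-ratio rescaling.

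The 4 measured ORC subunits were all higher in knockdown than in control at 6 hpf, with a median log2 ratio of 0.65, and all stayed above 0 under each scaling. Of all genes compared, 61.0% were above 0 there as deposited. The small subunit orc6 stood at 251.0 and 233.3 RPKM at 2 hpf in control and knockdown. At 6 hpf the values were 38.1 and 124.4 RPKM, a log2 ratio of 1.68. It fell by 2.69 on the log2 scale in control over these hours, more than any other member, and changed by -0.90 in knockdown. The other subunits were spread over a wide range of levels, with orc1, an ATPase, at 70.0, 80.2, 19.5 and 27.8 RPKM in the same order of groups. For orc3 the values were 28.4, 17.4, 9.45 and 13.6 RPKM, and for orc5 4.35, 3.46, 2.102 and 4.39 RPKM. Every subunit was lower at 6 than at 2 hpf in control, and 3 of them fell (orc1, orc3 and orc6). In knockdown orc1 fell, by 1.49 on the log2 scale. Although ORC works as a complex, the highest subunit stood 57.7 times above the lowest in control at 2 hpf and 18.1 times in control at 6 hpf. The ratio of orc6 to orc1 was 3.59 and 2.91 at 2 hpf and 1.96 in control and 4.47 in knockdown at 6 hpf.

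Of the genes for the helicase ring, 5 identifiers were measured, and their range narrowed over time. At 2 hpf they ran from 0.0493 to 93.4 RPKM in control. At 6 hpf they ran from 55.7 to 84.5 RPKM, a span of 1.52 times (2.11 times in knockdown). The low end at 2 hpf was mcm3 and 1 identifier named mcm6, whose relatives were present at that age. Summed with these relatives, mcm3 came to 31.5 RPKM and mcm6 to 93.4 RPKM in control at 2 hpf. The same sums were 60.1 and 130.8 RPKM at 6 hpf, so the width at 2 hpf depended on counting these forms apart. The level of mcm4 was 51.0 and 36.5 RPKM at 2 hpf, then 70.2 and 83.3 RPKM at 6 hpf, and that of mcm5 was 45.4 and 27.7 RPKM and then 84.5 and 103.6 RPKM. Both began lower in knockdown and ended slightly above control, with log2 ratios at 6 hpf of 0.24 and 0.29 that turned to -0.07 and -0.02 under median-ratio rescaling. Their rise over time reached 2-fold in knockdown (1.17 and 1.86 on the log2 scale, the former 0.98 without the features above 5000 RPKM) and not in control as deposited (0.45 and 0.88).

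The helicase genes mcm3 and mcm6 come in early and late forms. In the RefSeq annotation of the assembly GRCz12tu, mcm3 carries the synonym MCM3z and mcm3l the synonym MCM3m, and likewise mcm6 carries MCM6z and mcm6l MCM6m. The RefSeq table used does not pair these names with Ensembl identifiers, and both identifiers of the mcm6 kind are named mcm6 in the symbol table used. The gene mcm3 was nearly silent at 2 hpf, at 0.249 RPKM in control against 0.130 RPKM in knockdown, and reached 55.7 and 49.1 RPKM at 6 hpf. Its relative mcm3l, which is no member and was added after its values were seen, ran the other way. It stood at 31.3 and 22.5 RPKM at 2 hpf, and at 4.48 RPKM in control against 17.6 RPKM in knockdown at 6 hpf, a log2 ratio of 1.76 that lay between 1.48 and 1.76 under the 4 scalings.

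The identifiers named mcm6 showed a late form that rose while the early one did not fall by 2-fold. ENSDARG00000057683 went from 0.0493 RPKM in control and 0.0645 RPKM in knockdown to 61.4 and 49.8 RPKM at 6 hpf. ENSDARG00000033231 held 93.4 and 90.8 RPKM at 2 hpf, then 69.4 and 95.9 RPKM at 6 hpf. The late form made up 46.9% of the mcm6 sum in control and 34.2% in knockdown at 6 hpf, and mcm3 made up 92.5% and 73.7% of the sum of mcm3 and mcm3l. At 2 hpf these shares were between 0.0528% and 0.789%. At 6 hpf both late forms were somewhat lower in knockdown (log2 ratios -0.18 for mcm3 and -0.30 for mcm6), and both early forms higher, under every scaling. Reads that relatives share cannot be told apart here.

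**Figure D3:**
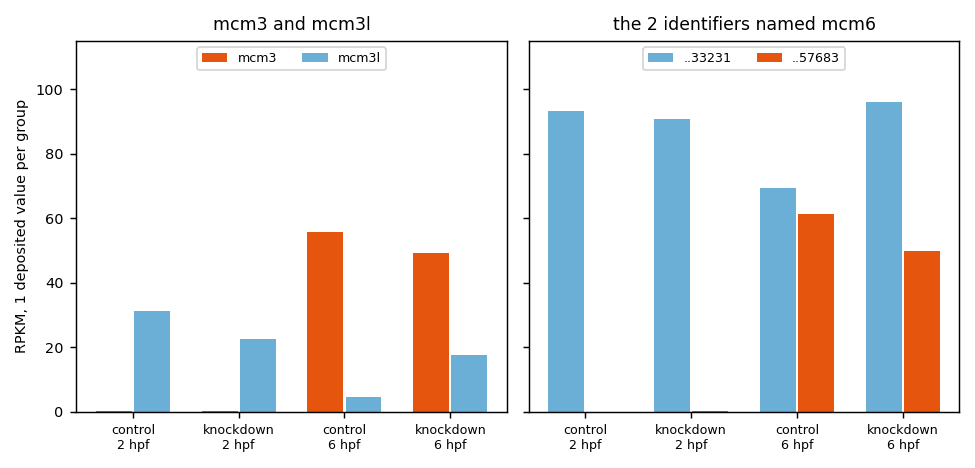
RPKM of mcm3 and mcm3l (left) and of the 2 identifiers named mcm6 (right) in the 4 groups, with 1 deposited value per bar, blue for the form present at 2 hpf and orange for the form near 0 at 2 hpf. At 6 hpf mcm3l is at 4.48 RPKM in control against 17.6 RPKM in knockdown, while mcm3 is at 55.7 and 49.1 RPKM.

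The MCM relatives outside the ring differed little between the arms. Both mcm8 and mcm9, whose products act together in repair by recombination, were lower at 6 hpf, at 17.3 and 13.1 RPKM and then 6.85 and 6.29 RPKM for mcm8, and 8.95 and 8.22 RPKM and then 4.04 and 3.35 RPKM for mcm9. The helicase activator mcm10 went from 22.2 and 22.8 RPKM to 11.2 and 13.3 RPKM. All 3 lay within 0.38 of 0 on the log2 scale in both knockdown comparisons, and all 3 were lower at the later age in both arms, with log2 changes between -1.22 and -0.73.

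In the group that turns the loaded ring into a moving helicase, cdc45 stood apart. Its level was 15.3 RPKM in control and 33.3 RPKM in knockdown at 2 hpf, and 11.8 and 7.07 RPKM at 6 hpf. It was the only member risen at 2 hpf (log2 ratio 1.08) and among the lower ones at 6 hpf (-0.67). Across all 4 scalings the ratio was 1.08 to 1.26 at 2 hpf and -0.95 to -0.67 at 6 hpf, and with a pseudocount of 5 RPKM it was 0.92 at 2 hpf, under 2-fold. From 2 to 6 hpf cdc45 fell by 2.09 on the log2 scale in knockdown and changed by -0.35 in control. The 4 GINS subunits, which join the same helicase, did not share this course. For gins1 the values were 45.6 and 32.7 RPKM at 2 hpf, then 25.7 and 48.0 RPKM at 6 hpf, a ratio of 0.88 at the later age. At 6 hpf the others stood nearer to control, with gins2 at 13.4, 17.5, 13.4 and 16.7 RPKM, gins3 at 41.7, 26.6, 40.7 and 41.5 RPKM and gins4 at 14.0, 12.5, 13.1 and 15.2 RPKM in the order control and knockdown at 2 hpf, control and knockdown at 6 hpf. Per RPKM of cdc45 there were 2.99 RPKM of gins1 in control and 0.982 in knockdown at 2 hpf, and 2.18 and 6.79 at 6 hpf.

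Polymerase genes were expressed at moderate levels. Among the 7 polymerase and primase members, pold1 and pold3 of polymerase delta differed most at 6 hpf. At 2 hpf both stood near control, and pole differed most in this group. The catalytic subunit pold1 stood at 40.2 and 39.0 RPKM at 2 hpf and at 15.4 RPKM in control against 34.9 RPKM in knockdown at 6 hpf, a log2 ratio of 1.13. Its partner pold3 stood at 60.7, 53.6, 55.7 and 108.2 RPKM, a log2 ratio of 0.95 at 6 hpf, just under 2-fold. The catalytic subunit of polymerase epsilon, which copies the leading strand, had the opposite sign at 6 hpf. This gene, pole, was at 4.32 and 6.16 RPKM at 2 hpf and at 6.99 and 4.39 RPKM at 6 hpf, with ratios of 0.43 and -0.57 that kept their signs under each scaling. The ratio of pold1 to pole was 9.32 and 6.34 at 2 hpf, and 2.21 in control and 7.95 in knockdown at 6 hpf. Other subunits, which are no members, did not share this contrast. At 6 hpf the log2 ratio was 1.24 for pole3 and 0.47 for pole4 of polymerase epsilon. For pold4 of polymerase delta it was -0.50, at no more than 1.19 RPKM in any group.

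Polymerase alpha and primase, which lay down the primers, changed less. The catalytic subunit pola1 stood at 13.8 and 14.9 RPKM at 2 hpf and at 19.2 and 14.9 RPKM at 6 hpf, and its partner pola2 at 28.7 and 26.1 RPKM and then 12.4 and 13.6 RPKM. The primase subunits prim1 (25.4, 23.9, 20.6 and 26.5 RPKM) and prim2 (21.1, 19.0, 11.1 and 14.7 RPKM) lay within 0.38 of 0 on the log2 scale in both knockdown comparisons. Only pola1 of these 4 was lower in knockdown at 6 hpf, at -0.35, and pola2 (0.13) turned to -0.17 under median-ratio rescaling.

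The sliding clamp pcna, which holds polymerases on DNA, stood at 306.0 and 252.1 RPKM at 2 hpf and at 618.6 and 611.8 RPKM at 6 hpf. Its log2 ratio at 6 hpf was -0.02 as deposited and ran from -0.33 to 0.08 under the other scalings. The clamp loader, made of a large subunit and 4 small ones, split by subunit. The large subunit rfc1 fell in both arms, from 32.6 to 5.30 RPKM in control and from 23.6 to 9.09 RPKM in knockdown. By contrast rfc2 rose in both arms, from 10.6 to 24.1 RPKM in control and from 7.51 to 37.6 RPKM in knockdown. In knockdown rfc4 (25.9 to 66.3 RPKM) and rfc5 (12.5 to 31.5 RPKM) also rose, where in control they stood at 38.5 and 47.0 RPKM and at 21.4 and 26.4 RPKM. The values of rfc3 were 25.3 and 27.4 RPKM and then 18.5 and 29.1 RPKM.

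All 5 loader subunits were higher in knockdown than in control at 6 hpf, by 0.24 to 0.68 on the log2 scale. However, rfc5 came to -0.06 under median-ratio rescaling, and as deposited 61.0% of all genes were above 0 at 6 hpf. At 2 hpf 4 of the 5 were lower, with log2 ratios between -0.73 and -0.45 that stayed below 0 under every scaling, and rfc3 was at 0.11. Only 27.1% of all genes were above 0 at that age as deposited. The ratio of rfc1 to rfc4 was 0.849 and 0.912 at 2 hpf and 0.113 and 0.137 at 6 hpf. This ratio of transcripts thus changed more over time than it differed between the arms.

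The transcripts for the subunits of RPA, which coats single-stranded DNA, also changed their proportions. The large subunit rpa1 stood at 70.5 and 78.8 RPKM at 2 hpf and at 43.1 and 34.7 RPKM at 6 hpf, while rpa2 rose from 15.1 to 44.3 RPKM in control and from 10.8 to 53.9 RPKM in knockdown. There were 0.214 and 0.137 RPKM of rpa2 per RPKM of rpa1 at 2 hpf and 1.03 and 1.55 at 6 hpf. The small subunit rpa3 was at 160.8 and 156.9 RPKM and then at 91.8 RPKM in control against 162.7 RPKM in knockdown, a log2 ratio of 0.82.

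Of the enzymes that join the fragments of the lagging strand, the flap nuclease fen1 stood at 53.4 and 37.7 RPKM at 2 hpf and at 75.3 and 89.4 RPKM at 6 hpf. The ligase lig1 stood at 89.6 and 74.6 RPKM and then at 99.98 and 110.0 RPKM. Both were lower in knockdown at 2 hpf under every scaling, while their ratios of 0.25 and 0.14 at 6 hpf became -0.07 and -0.18 under median-ratio rescaling.

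The course from 2 to 6 hpf can be set side by side in both arms, which share no table. Maternal RNA that remained and new RNA of the same gene cannot be told apart in these values. In control 6 members rose (27.5% of all genes) and 8 fell (28.0%), and at 1.5-fold 8 were higher (34.6%) and 16 lower (39.7%). In knockdown 11 rose (25.5%) and 5 fell (13.0%), and at 1.5-fold 13 were higher (36.2%) and 10 lower (22.9%). The same 6 members rose in control and in knockdown, as 19.7% of all genes did, namely mcm3, the late mcm6, dbf4, rpa2, rfc2 and pcna, the last of these at 1.01 in control, close to 2-fold. Another 5 passed 2-fold upward in knockdown alone, mcm4, mcm5, rfc4, rfc5 and fen1, with log2 changes of 0.28 to 0.88 in control, and 5.77% of all genes did so. Of the 8 that fell in control, orc1 and rfc1 fell in knockdown too (11.7% of all genes). The other 6 (16.3% of all genes fell in control alone), GMNN, orc6, orc3, pold1, pola2 and mcm8, changed by between -0.95 and -0.04 there. The 3 that fell in knockdown and not in control were cdc45, rpa1 and mcm9, the last at -0.98 in control, against 1.26% of all genes. Rescaled by the median ratio, the control course of orc3, pold1, mcm8 and pola2 came to between -0.97 and -0.62, under 2-fold, while mcm5 (1.43), fen1 (1.03) and pole (1.05) passed 2-fold in control. With quantile normalization cdc6 (-1.15) fell and mcm5 (1.04) rose in control, where pola2 (-0.92) and pcna (0.61) came under 2-fold. In knockdown it took orc6 (-1.15) and mcm8 (-1.16) past 2-fold and pcna (0.99) under it. Without the features above 5000 RPKM, orc6, mcm8, pola2 and cdc7 fell in knockdown too, with changes between -1.13 and -1.03, and mcm4 came under 2-fold there. In control mcm9 (-1.07) and mcm10 (-1.02) then fell and pcna (0.91) came under 2-fold.

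Across the 40 members the courses of the arms correlated at 0.909 (Pearson) and 0.799 (Spearman), and at 0.738 and 0.746 over the 37 without mcm3, the late mcm6 and dbf4. These are descriptions over genes, which are not independent, with 2 separate tables per arm. The same correlation over all genes is not given here, so these values do not set the members apart. The knockdown course lay above the control course in 30 of 40 members, against 67.0% of all genes. The median difference was 0.52 on the log2 scale, where all genes had 0.35. After rescaling by the median ratio the knockdown course lay above in 20 of 40 (45.9% of all genes), with a median difference of -0.0070. The difference, which equals that between the knockdown ratios at 6 and at 2 hpf, was at least 2-fold upward in 10 members (16.5% of all genes) and downward in 1, cdc45 (7.91%). At 1.5-fold these were 19 (36.8%) and 2 (15.0%). It was at least 2-fold in every setting tried for GMNN (1.99), orc6 (1.79) and cdc45 (-1.74). For pole it was -0.997, just under 2-fold downward, and reached -1.47 across the 4 scalings. For rpa1 it was -0.46 and reached -1.01.

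**Figure D4:**
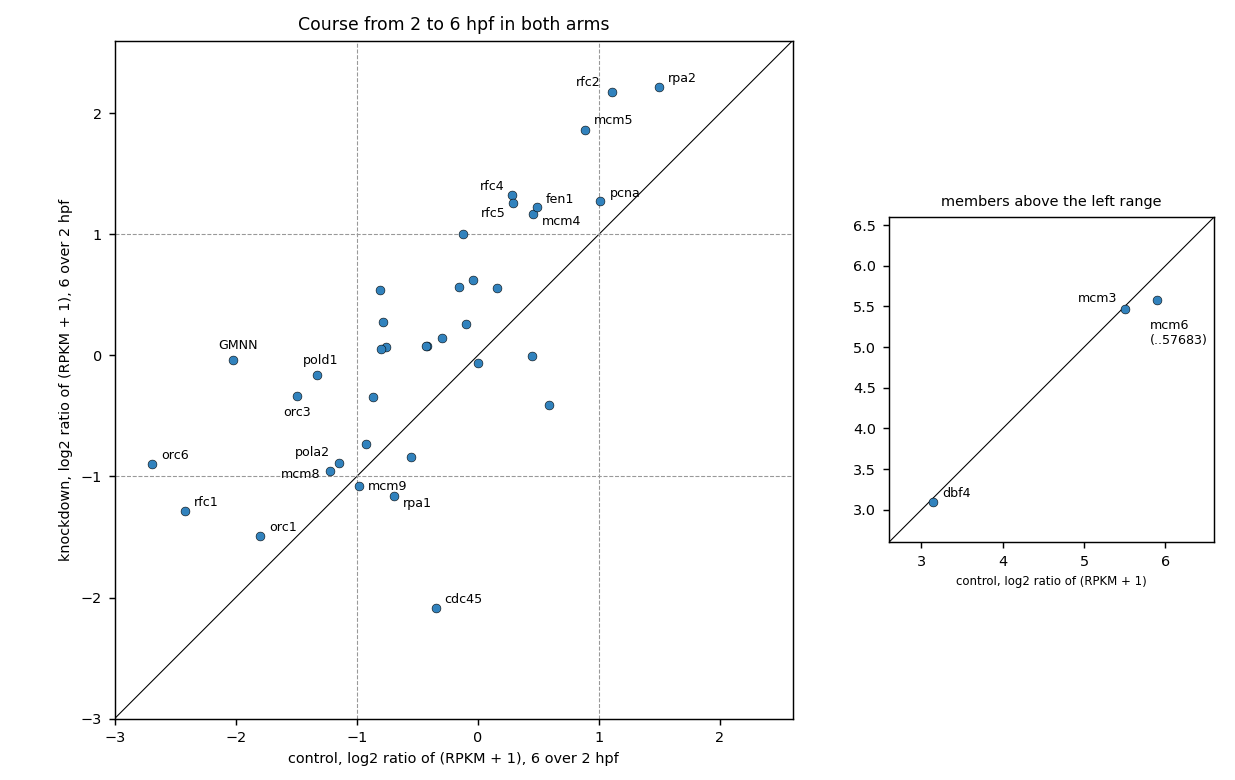
Log2 ratio of (RPKM + 1), 6 over 2 hpf, in control (horizontal) and knockdown (vertical) for each member, with 37 members in the left panel and the 3 above its range in the right panel on axes of their own range, the diagonal of equal change and dashed lines at 2-fold. GMNN and orc6 lie above the diagonal on the left (-2.02 and -2.69 in control against -0.04 and -0.90 in knockdown), and cdc45 lies far below it.

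**Figure D5:**
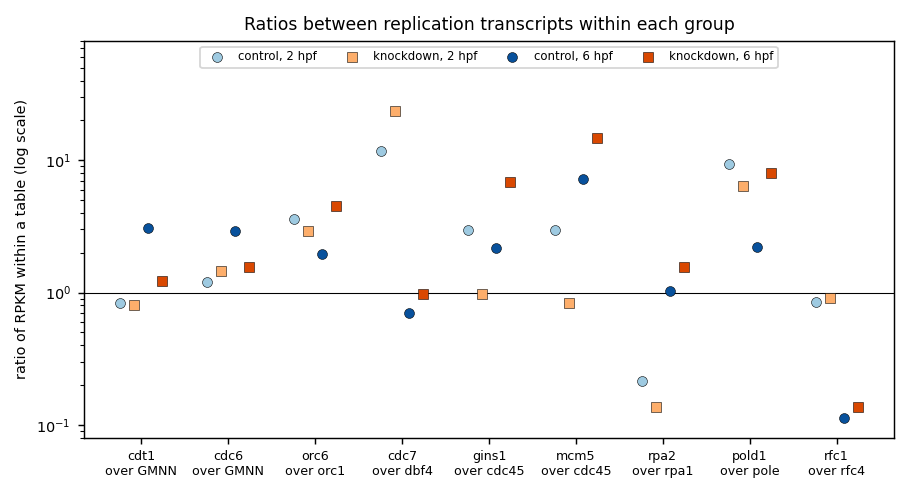
Ratio of the RPKM of 2 replication transcripts within each table, on a log scale, with 1 point for each of the 4 groups. For cdt1 over GMNN the control table at 6 hpf (3.06) stands above the other 3, and for gins1 over cdc45 the knockdown points at 2 hpf (0.982) and 6 hpf (6.79) lie on opposite sides of both control points.

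Genes that work beside the listed ones were looked at as lists. Of all genes compared, 8.72% rose and 7.87% fell in knockdown at 6 hpf, with a median log2 ratio of 0.20. At 2 hpf 0.506% rose and 0.943% fell. Of 24 other fork and origin factors compared, 1 rose in knockdown at 6 hpf and none fell, with a median log2 ratio of 0.20. The riser was pole3, a histone-fold subunit of polymerase epsilon, at 132.0 and 123.3 RPKM at 2 hpf and at 50.9 RPKM in control against 122.0 RPKM in knockdown at 6 hpf, close to the course of pold1. Of the 12 genes for nucleotide supply none rose or fell in knockdown at either age (median 0.09 at 6 hpf). Among these rrm2, a subunit of ribonucleotide reductase, names 2 identifiers, which stood at 268.9 and 337.4 RPKM and at 237.4 and 206.1 RPKM at 6 hpf. Of the 7 genes for chromatin behind the fork 1 rose at 6 hpf (median 0.17). This was slbp2, a relative of the histone stem-loop binding protein gene, at 6.94 RPKM in control against 14.9 RPKM in knockdown. Its log2 ratio of 1.004 lay barely past 2-fold, and at 2 hpf it stood far higher, at 125.5 and 154.0 RPKM.

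Of the 26 genes for S-phase and checkpoint control, 2 rose and 1 fell in knockdown at 6 hpf, against 8.72% and 7.87% of all genes. Their median log2 ratio was 0.08, where all genes had 0.20. The egg-type cyclin ccna1 stood at 138.2 RPKM in control against 380.1 RPKM in knockdown, and wee2, an inhibitory kinase of the germline, at 28.3 and 82.1 RPKM. Both were far higher at 2 hpf, at 1241 and 1215 RPKM and at 293.4 and 284.7 RPKM. The kinase gene cdk1 ran the other way, from 4.34 and 4.62 RPKM at 2 hpf to 52.6 RPKM in control and 21.8 RPKM in knockdown.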

How the data were processed

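Poly(A) RNA of zebrafish embryos was sequenced from stranded libraries, per the labels' protocols. The authors deposited 4 tables of RPKM without headers, each with 33737 Ensembl identifiers and 1 value per group of 2 libraries. Per the submitters' processing notes, the tools were HISAT2 2.0.5, SAMtools 1.9, Trimmomatic 0.36 and cutadapt 1.13, with the build Zv9. How reads were counted, with which strand setting and annotation, is not given in the sources used here, so overlapping and antisense genes are uncertain.

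Tables were matched to groups by the arm and age in their names. Symbols came from a table covering 21939 identifiers. The tables hold no coordinates, and no sequence is shown. Ratios are log2 of (RPKM + 1) over identifiers at 1 RPKM or more in any table, computed with Python 3.11.15, numpy 2.4.6 and pandas 2.3.3, plotted with matplotlib 3.10.9 and checked on simulated tables. With 1 value per group no test was made. Low values moved in steps, from which 5 RPKM stood for 39.6 to 78.4 reads per group at a gene of high read worth (90th percentile of 238 genes at 2 hpf and 280 at 6 hpf, not the members). This bears on counting error only.

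All members are accounted for. Those given with 4 values include every member that rose or fell between the arms, and genes of the other lists described are named if they did so at 6 hpf. A further list is not reported here. The genes rrm2, mcm3l, top2a, recql4, dbf4b, topbp1, pole4 and pold4 were chosen after their values were seen, as were the pairs set as ratios. Members and lists were chosen with earlier results of these data known. Results were recomputed with a pseudocount of 0.1 or 5 RPKM, without a filter or with a filter of 5 RPKM, rescaled by the median ratio, with quantile normalization, without features above 5000 RPKM in the sums, and at a size of 1.5-fold.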

Additional observations from a re-analysis of the deposited data

Results flagged for a closer look

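In 11 of the 40 members the knockdown ratio had opposite signs at 2 and 6 hpf, with the ratios at least 2-fold apart. The ratio was the higher at 6 hpf in 10 of the 40, against 14.5% of all genes under the same conditions, and the lower in 1, against 3.68%. Each rests on 1 value per group, and the difference was not tested. In the 10 knockdown was lower than control at 2 hpf and higher at 6 hpf. The log2 ratio at 6 hpf minus that at 2 hpf was 1.99 for GMNN, 1.79 for orc6, 1.35 for gins1, 1.17 for pold1, 1.16 for orc3, 1.13 for rfc1, 1.12 for pold3, 1.07 for rfc2, 1.06 for orc5 and 1.04 for rfc4. In cdc45 the order was the opposite, with a difference of -1.74. The same order was seen in pole, whose difference of -0.997 lay just under 2-fold and so outside the 11. Rescaling by the median ratio put the difference under 2-fold for gins1, pold1, orc3, rfc1, pold3, rfc2, orc5 and rfc4, and it also turned the small ratios of orc6, pold1 and pold3 at 2 hpf to above 0.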

How the results depend on the processing

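No paired analysis was possible because each table holds 1 value per group, and for the same reason no replicate could be left out. At 2 hpf the median log2 ratio of the members, -0.15, became 0.025 after rescaling by the median ratio. With a pseudocount of 5 RPKM the number higher went from 1 to 0 (0.203% of all genes). At 1.5-fold the number lower went from 0 to 5 (6.47%). At 6 hpf the median, 0.29, became -0.026 after rescaling by the median ratio and 0.15 with quantile normalization. Under the former 1 member was lower (12.2% of all genes). At 1.5-fold 11 were higher (26.1%) and 2 lower (16.2%). The control course (median -0.32) became 0.20 after rescaling by the median ratio and -0.16 with quantile normalization. Under the former 4 had fallen (17.9% of all genes), and at 1.5-fold 16 were lower (39.7%). The knockdown course (0.08) became -0.084 with quantile normalization and -0.11 without the features above 5000 RPKM. In the latter setting 9 had fallen (16.4% of all genes), and at 1.5-fold 10 were lower (22.9%). The difference between the ages (median 0.52, 10 higher, 1 lower) became -0.0070 after rescaling by the median ratio and 0.30 with quantile normalization. After that rescaling 2 were higher (4.81% of all genes) and 3 lower (14.6%). With quantile normalization 3 were higher (8.97%) and 2 lower (10.7%). There were 5 higher with a pseudocount of 5 RPKM (6.01%). A pseudocount of 0.1 RPKM gave 2 lower (11.5%), as did leaving out the features above 5000 RPKM (8.19%). At 1.5-fold 19 were higher (36.8%) and 2 lower (15.0%). The cause was not tested beyond the rescaling itself. No member past 2-fold changed sign. Of those called between the arms, GMNN and orc6 at 6 hpf stayed past 2-fold in every setting, pold1 did not with a pseudocount of 5 RPKM, rescaling by the median ratio or quantile normalization, and cdc45 at 2 hpf did not with a pseudocount of 5 RPKM. Over time 8 of 14 in control and 13 of 16 in knockdown stayed past 2-fold in every setting. Read worth was estimated at 5 RPKM on other genes, so for members below that, such as dbf4, mcm3 and the late mcm6 at 2 hpf, few reads may be at stake, and the error between replicates is unknown.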

Other observations

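The gene top2a, for the topoisomerase that untangles replicated chromosomes, resembled cdc45 at 2 hpf and was picked after its values were seen. It stood at 7.78 RPKM in control against 20.3 RPKM in knockdown at 2 hpf, a log2 ratio of 1.28, and at 86.6 and 50.0 RPKM at 6 hpf, a ratio of -0.78. Unlike cdc45, it rose over time in both arms. Of the 24 fork and origin factors compared, it was the only riser at 2 hpf, against 0.506% of all genes, and none fell, against 0.943%.

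Some of the factors known to limit replication in the early embryo of the frog Xenopus, as its cycles lengthen, were looked at too. The transcript of recql4, a helicase gene, went from 49.3 RPKM in control and 51.9 RPKM in knockdown to 5.45 and 10.0 RPKM. That of dbf4b, a relative of dbf4, went from 30.3 and 23.3 RPKM to 14.9 and 12.8 RPKM, while dbf4 itself rose. The third, topbp1, stood at 13.6 and 13.8 RPKM and then at 12.2 and 8.44 RPKM, log2 changes of -0.15 in control and -0.65 in knockdown. None of them differed by 2-fold between the arms at either age.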
